A study of Mus musculus with 38 samples.

Results

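To ask how CTCF occupancy differed before and early after Notch stimulation, all peaks of the LP CTCF list and the Phase 1 CTCF list were compared. The LP list held 45388 peaks and the Phase 1 list 44793, together 90181 of the 359759 peaks in the 17 lists of the series. A peak was called stage-specific when no peak of the other list shared at least 1 bp with it, and shared otherwise. By this rule 4333 LP peaks were LP-specific, 3738 Phase 1 peaks were Phase 1-specific, and 41055 peaks of each list were shared and matched one-to-one. These classes were fixed by position alone, so the tests between classes are on annotation, sequence and other factors, which the rule did not use. The overlap itself was tested only against that of other factors. A peak bears the name of the gene whose start is nearest, which need not be the gene it lies in.

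Both lists came from Cas9-LP cells, lymphoid progenitors grown from mouse fetal liver that lack the B-lineage factor Ebf1 and carry Cas9 in the Rosa26 locus. LP cells were kept on OP9 stroma without Notch ligand, and Phase 1 cells were moved onto OP9-DLL4, stroma cells that express DLL4 and so stimulate Notch. Both groups therefore shared the Ebf1 deficiency and the Cas9 knock-in, and none of the CTCF samples was labelled with a guide RNA. ChIP with an antibody to CTCF was done on 2 samples per stage after fixation with disuccinimidyl glutarate and formaldehyde, and each list holds only peaks reproducible in both. Such a line is a model of early T-lineage entry outside the thymus, without the Ebf1-dependent B-lineage branch. Because the 2 samples were merged before deposit, peaks were the units counted, intervals and p-values cover counting error only, and no error between cultures could be given.

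CTCF is a DNA-binding protein with a row of zinc fingers that recognises a long, GC-rich motif. With cohesin it marks the anchors of chromatin loops and the borders of domains, and its occupancy is in large part similar between cell types. In rodents, copies of the SINE B2 family of retrotransposons carried CTCF motifs to many new positions. At antigen receptor loci, CTCF sites lie between the variable segments and take part in folding the locus.

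The sequences below show the motif and the positions on which the results turn. The matrix was learned from the 2000 highest-scored shared LP peaks, which were then left out of every motif test. Its 20-base consensus was GTGGCCACCAGGGGGCGCTA. Each line gives the best match in a peak in capitals with 5 bases on either side, read 5′ to 3′ on the strand of the match from GRCm38 (mm10). The first 8 lines are 4 places where a stage-specific peak lay beside a peak of the other stage, the following 3 are strong stage-specific peaks without such a neighbour, and the last 4 lie in B2_Mm2 or B2_Mm1t elements. The Crygn peak and the Phase 1 peak of Uts2 are in the B2 family as well, in a B3A and a B3 element.
Ldhal6b, LP, chr17:5402836-5402865, minus strand: tgcagAGTGCCAGCAGGGGGCGCAGagtcc
Ldhal6b, Phase 1, chr17:5402248-5402277, minus strand: ccccaGCAGCCAGGAGGGGGCGCAGagccc
Kctd17, LP, chr15:78447801-78447830, plus strand: aaaagATCGCCACCAGGGGGCGCGCggggc
Kctd17, Phase 1, chr15:78448401-78448430, plus strand: atgagATCACCACTAGGGGGAGCCCtggag
Uts2, LP, chr4:150964734-150964763, plus strand: cgtagTCACCCAGCAGGGGGCACACcatga
Uts2, Phase 1, chr4:150965350-150965379, minus strand: ccaggCAGGCCACAAGAGGGCATCAgatcc
4930578M01Rik, LP, chr15:98994088-98994117, minus strand: tcagaGTGTCCAGCAGATGGCGCCAcagct
4930578M01Rik, Phase 1, chr15:98993190-98993219, plus strand: cgcctGTAACCAGCAGGCGGCGCTGtcccc
Tmem121, LP-specific, chr12:113216109-113216138, plus strand: gtggaGAGGCCACCAGGGGGTGCACaagca
Lyl1, LP-specific, chr8:84704582-84704611, minus strand: ttcccGCCTCCAGCAGGGGGCGCCGatgag
Crygn, Phase 1-specific, chr5:24776816-24776845, plus strand: ccacgGAGGCCAGAAGAGGGCGTCAgatcc
Cd28, LP-specific, B2_Mm2, chr1:60703826-60703855, minus strand: tcagaCACACCAGAAGAGGGCATCAgagcc
Tcf7, Phase 1-specific, B2_Mm2, chr11:52305655-52305684, plus strand: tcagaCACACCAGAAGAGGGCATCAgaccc
Itgam, Phase 1-specific, B2_Mm2, chr7:128043212-128043241, plus strand: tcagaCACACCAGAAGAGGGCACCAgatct
Wapl, Phase 1-specific, B2_Mm1t, chr14:34680387-34680416, plus strand: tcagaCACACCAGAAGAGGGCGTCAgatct

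The antibody label was first checked against this motif. A match within 100 bp of the peak centre that passed a threshold met by 1% of windows of the same length (201 bp) 2 kb to either side was found in 24467 of 43377 tested LP peaks (56.4%). Matches lay at the peak summit, with a median of 9.5 bp from the centre at shared LP peaks and 11.5 bp at LP-specific peaks. The windows 2 kb away set the threshold, and their share with a match was between 0.75% and 1.05% for every class and side. Both strands were matched equally often, with 49.5% of shared and 49.5% of LP-specific matches on the plus strand.

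Stage-specific peaks were a small and low-scored fraction of both lists. They made up 9.55% of LP peaks (4333 of 45388) and 8.35% of Phase 1 peaks (3738 of 44793), and these shares are the background for every count by gene or locus below. The peak score is the authors' normalised score and was read only as a rank within its own list. In LP the specific peaks had a median score of 20.4 and the shared ones 75.5, with no peak below 15. In Phase 1 the medians were 21.8 and 78.6, with no peak below 16.1. When each list was cut into 10 classes of equal size by score, 2118 LP-specific peaks (48.9% of them) and 1750 Phase 1-specific peaks (46.8%) fell into the lowest class. The stage-specific share fell from 46.7% in the lowest LP class to 0.529% in the highest, and from 39.1% to 0.424% in Phase 1. With a score of at least 30 required of a peak and the other list kept whole, 980 LP (2.84%) and 938 Phase 1 peaks (2.69%) were stage-specific.

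**Figure D1:**
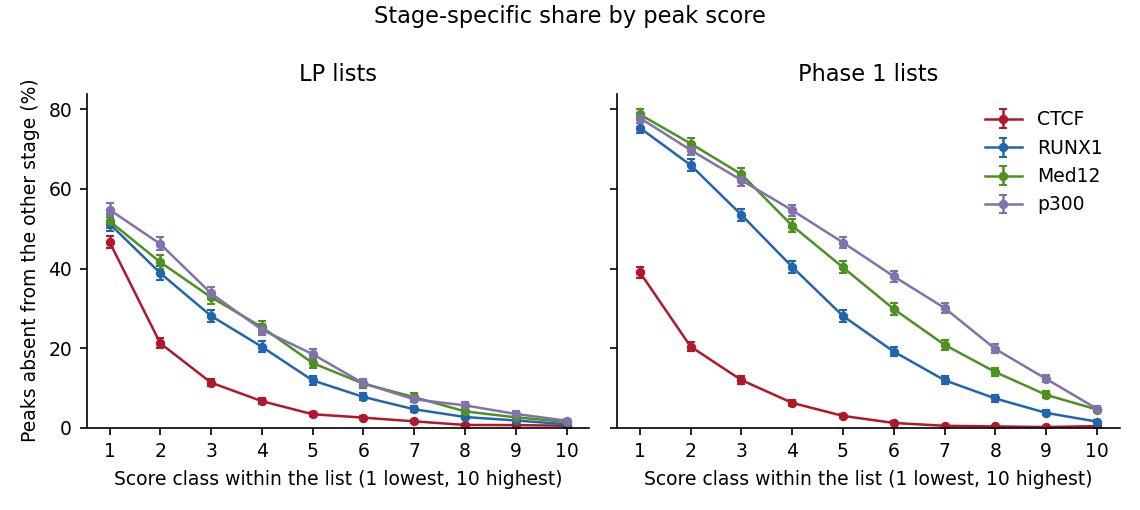
Percent of peaks with no overlapping peak of the same factor in the other stage (y axis) in 10 equal classes of peak score within each list (x axis, 1 lowest), for CTCF, RUNX1, Med12 and p300 in the LP lists (left) and Phase 1 lists (right). Bars are 95% Wilson intervals, and the CTCF line lies below those of the other factors in all 10 classes of both panels, for example at 21.2% in class 2 of the LP list.

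At matched rank, an LP CTCF peak was found again in Phase 1 more often than a peak of the other factors. The Mantel-Haenszel odds ratio over 10 score classes was 2.25 (95% interval 2.15 to 2.37) against RUNX1, with an adjusted p of 4.12e-247. It was 2.77 (2.64 to 2.91) against Med12, a Mediator subunit, and 3.08 (2.95 to 3.23) against the acetyltransferase p300, with both adjusted p-values returned as 0. In the lowest class the LP-specific share was 46.7% for CTCF and 51.2% for RUNX1, and in class 5 it was 3.42% for CTCF and 11.9% for RUNX1. The lists came from different antibodies and differed in length (45388 LP peaks for CTCF, 31995 for RUNX1, 30020 for Med12 and 36182 for p300), and the part of either in these differences was not tested.

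Shared CTCF peaks kept both position and rank. The median distance between the LP and the Phase 1 centre was 9 bp, and 98.5% of the 41055 pairs lay within 50 bp of each other. The 2 sides of the rule met closely, since the most distant shared pair had centres 412 bp apart with 2 bp of overlap and the nearest non-overlapping neighbours were 415 bp apart. The percentile of a peak within its list changed by a median of 3.99 points, and 85.3% of pairs changed by 10 points or less. Pearson's r between percentiles was 0.965 and Spearman's rho between scores 0.968 over the 41055 pairs, as a description of pairs that share the genome and the cell line. A change of over 25 points was seen in 283 pairs in all, of which 188 rose and 95 fell from LP to Phase 1.

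**Figure D2:**
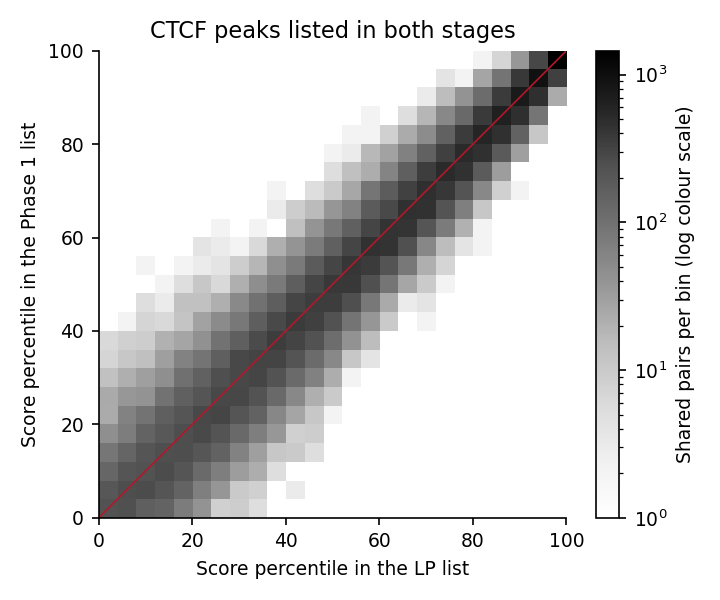
Score percentile in the Phase 1 list (y axis) against that in the LP list (x axis) for the 41055 CTCF peaks listed in both stages, with the number of pairs per bin as a grey level on a log scale. Pairs lie along the red line of equal percentile, and 85.3% of them are within 10 points of it.

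The highest-scored shared peaks were nearly the same places in both lists. On the named chromosomes of the LP list they were a promoter peak nearest to Hjurp, the chaperone of the centromeric histone CENP-A, with a score of 960.6, and 2 intronic peaks nearest to Erdr1 on chromosome Y with scores of 946.1 and 903.6. The same 2 positions were the highest on the named chromosomes of the Phase 1 list, with scores of 1133.8 and 1078.6, followed by the promoter of Sh3gl1, an endophilin, with 1077.9. The Hjurp peak scored 1075.4 in Phase 1 and had no match past the motif threshold, while it overlapped RUNX1, Med12 and p300 peaks of both stages.

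The largest changes of rank among shared peaks took a position from the bottom of a list to its middle or back. A peak 65.0 kb from the start of Mroh9 (chr1:163150420-163150820 in LP) went from a score of 19.3, at percentile 8.37, to 119 in Phase 1, at percentile 67.8. A peak in intron 14 of Fbln1, which encodes an extracellular matrix protein, went from 30.1 (percentile 24.2) to 124.5 (percentile 69.3). In the other direction, a peak 2.14 kb from Mir3106 in an ERVK element went from 66.4 (percentile 50.3) to 19 (percentile 5.77). A peak 0.459 kb from the start of the prefoldin gene Pfdn2 went from 70.1 to 23.5. These peaks were picked for their change, so the values are a description.

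Pairs that rose in rank had another factor in Phase 1 only more often than other pairs. Pairs that fell did not have one in LP only more often. The groups were not matched on score, and a p300 peak of LP overlapped 3.92% of shared LP peaks in score class 1 and 55.4% in class 10. The part of score in these differences was not tested. Of the 2937 pairs that rose by over 10 points, 233 (7.93%, interval 7.01% to 8.97%) had a p300 peak in Phase 1 only and 16 (0.545%) in LP only. Of the 3095 pairs that fell by over 10 points, 20 (0.646%) had one in Phase 1 only and 150 (4.85%, 4.14% to 5.66%) in LP only. Among the 35023 pairs within 10 points the shares were 2.50% in Phase 1 only and 4.86% in LP only. RUNX1 in Phase 1 only was found at 4.53% of rising, 0.775% of falling and 1.34% of other pairs, and in LP only at 0.817%, 3.17% and 5.13%. Med12 in LP only was found at 1.19%, 3.62% and 4.92%. Rising pairs were annotated as promoter in 12.02% of cases, falling pairs in 4.46% and pairs within 10 points in 7.95%. A CTCF motif was present in 43.3% of rising, 51.5% of falling and 61.3% of other pairs.

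Nearly all stage-specific peaks of the highest score class lay close to a CTCF peak of the other stage. Of the 24 LP-specific peaks in the highest score class, 23 had a Phase 1 CTCF centre within 1 kb, and so did 18 of the 19 Phase 1-specific peaks of that class with an LP centre. In the upper 5 classes together 109 of 278 LP-specific (39.2%) and 47 of 122 Phase 1-specific peaks (38.5%) had one. In the lowest class 23 of 2118 LP-specific peaks and 17 of 1750 Phase 1-specific peaks had one. Over all classes 238 LP-specific and 132 Phase 1-specific peaks had such a neighbour, and 121 of these LP-specific peaks faced a peak that was itself Phase 1-specific, at a median distance of 625 bp. Within 1 list no centres were closer than 827 bp in LP and 768 bp in Phase 1, so a list held at most 1 peak over any shorter stretch. A motif was found in both members of 21 of these 121 pairs, in neither of 55, in the LP member only of 19 and in the Phase 1 member only of 26. The distance of 1 kb was chosen after the values were seen.

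**Figure D3:**
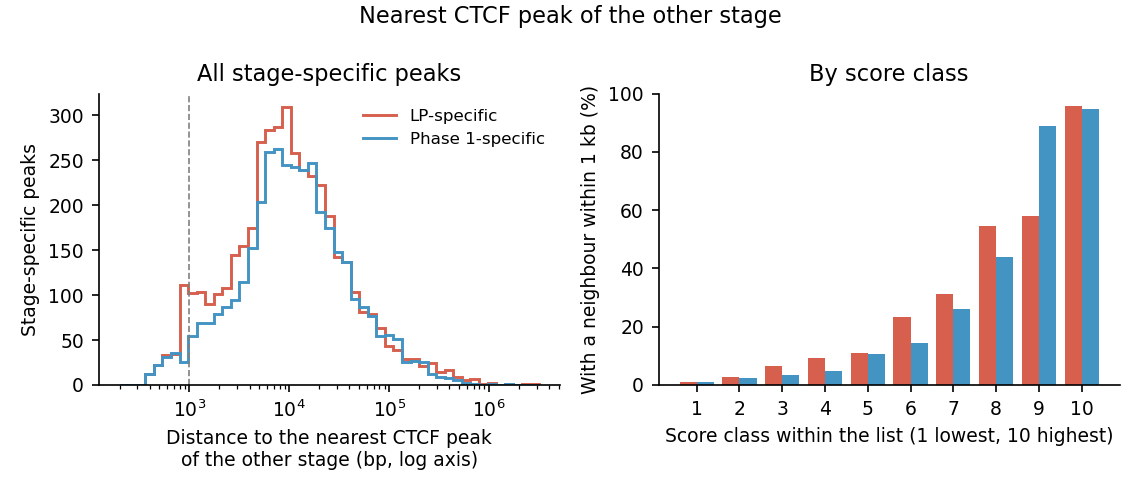
Number of stage-specific CTCF peaks (y axis) by distance to the nearest CTCF centre of the other stage (left, bp on a log axis, dashed line at 1 kb), and percent of stage-specific peaks with such a centre within 1 kb (y axis) in each of 10 score classes (right). In the highest class 95.8% of LP-specific and 94.7% of Phase 1-specific peaks have a neighbour within 1 kb, against 1.09% and 0.971% in the lowest.

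Each of the 5 highest-scored stage-specific peaks of either list had a CTCF centre of the other stage within 1 kb. The LP-specific peak 15.9 kb from Ldhal6b, a lactate dehydrogenase gene, had a score of 280.8 (percentile 97.3) and lay 583 bp from a Phase 1 peak with a score of 262.5 (percentile 93.4), and each held its own motif, as printed above. At Spns1, a lysosomal lipid transporter gene, the LP-specific peak at the promoter scored 274.7 and the Phase 1-specific peak 431 bp away scored 430, the highest of all Phase 1-specific peaks. The Phase 1 member there overlapped RUNX1, Med12 and p300 peaks of both stages and the LP member none. At Igfbp4, which encodes an insulin-like growth factor binding protein, the members lay 536 bp apart with scores of 271.1 in LP and 306.7 in Phase 1. The remaining ones of the LP list were in intron 1 of Tmprss9 (score 282.9, 914 bp from the nearest Phase 1 centre) and 8.14 kb from 4930578M01Rik (282.7, 930 bp). In Phase 1 they were 19.8 kb from Kctd17 (354.8, 567 bp from an LP centre), at the first exon of Zbtb45 (352.5, 433 bp) and 31.7 kb from Uts2 (326.6, 628 bp). At all 8 of these places a CTCF peak was listed within 1 kb in both stages.

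Among peaks with no CTCF centre of the other stage within 1 kb, 4095 in LP and 3606 in Phase 1, the leading ones lay lower in the lists. The first in LP was an intergenic peak 30.2 kb from Tmem121 (chr12:113215923-113216323), with a score of 254.8 (percentile 95.5), a motif and no RUNX1, Med12 or p300 peak, on the 3′ side of the immunoglobulin heavy chain locus. It was followed by peaks near Rtn2 (score 208.1) and Scarb1, the receptor for high-density lipoprotein (193.7), 2.65 kb from Midn (188.4), and 3.15 kb from Lyl1 (186.2), a transcription factor gene of blood progenitors. In Phase 1 the first was an intergenic peak 24.3 kb from Klrb1c, which encodes a natural killer cell receptor, with a score of 253.9 (percentile 92.6), no motif, and RUNX1, Med12 and p300 peaks of both stages. Next came intron 1 of Bcl6, a transcriptional repressor of lymphocytes (203.1), a B3A element near Crygn (160.9), and the promoters of Tcea2 (150.9) and Ass1 (147.2). The Crygn peak overlapped RUNX1, Med12 and p300 peaks of Phase 1 and none of LP. The nearest centre of the other stage was 1.43 kb away at Rtn2, 1.17 kb at Bcl6 and 1.22 kb at Tcea2. At the others it was between 2.03 and 6.21 kb away. This list was added after the neighbours were seen.

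Stage-specific peaks had the CTCF motif less often than shared peaks of the same rank. It was present in 1379 of 4332 LP-specific peaks (31.8%, interval 30.5% to 33.2%) and in 1151 of 3737 Phase 1-specific peaks (30.8%, 29.3% to 32.3%), against 59.1% of the 39045 shared peaks tested in either list. The Mantel-Haenszel odds ratio over 10 score classes was 0.427 (0.396 to 0.461) in LP and 0.402 (0.371 to 0.435) in Phase 1, with adjusted p-values of 1.85e-108 and 1.03e-113. In class 3 of 10, a motif was found in 78 of 515 LP-specific peaks (15.1%) and in 48.0% of shared peaks. In class 8, where 18 of the 33 LP-specific peaks had a neighbour within 1 kb, it was found in 25 of the 33 (75.8%) and in 69.5% of shared peaks. The difference between LP-specific and Phase 1-specific peaks did not pass the threshold in Fisher's exact test (odds ratio 1.05, 0.955 to 1.15, adjusted p = 0.374). It did with a stricter threshold met by 0.1% of flanking windows, with a match in 150 LP-specific (3.46%) and 61 Phase 1-specific peaks (1.63%), an odds ratio of 2.16 and an adjusted p of 2.4e-07. It also did with a score of at least 30, where the odds ratio was 1.46 and the adjusted p 0.000339.

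A CpG within the match was more frequent in LP-specific than in Phase 1-specific peaks. CTCF binding is known to be reduced by methylation of CpGs within its motif. A CG at positions 16 and 17 of the match, counted from its 5′ end, was present in 487 of 1379 LP-specific matches (35.3%, 32.8% to 37.9%) and 316 of 1151 Phase 1-specific matches (27.5%, 24.95% to 30.1%). Shared peaks of the lower 5 score classes had it in 31.6% of LP and 32.4% of Phase 1 matches. The median GC content of the 201-bp window was 49.8% at LP-specific and 46.8% at Phase 1-specific peaks, with 47.8% and 47.3% at shared peaks. The position was picked after its values were seen and was given no test.

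Over all score classes, stage-specific peaks were at promoters more often than shared peaks of the same rank. Promoter annotation was given to 596 LP-specific peaks (13.8%, 12.8% to 14.8%) and 408 Phase 1-specific peaks (10.9%, 9.96% to 11.96%), against 7.98% and 7.96% of shared peaks. At matched score the Mantel-Haenszel odds ratio was 4.15 (3.69 to 4.67, adjusted p = 3.19e-145, n = 45388 peaks) in LP and 3.48 (3.05 to 3.97, adjusted p = 2.16e-92, n = 44793 peaks) in Phase 1. The share peaked in class 4 of the LP list, at 107 of 304 LP-specific peaks (35.2%), where 8.29% of shared peaks were at promoters. The order turned in the highest classes, which held few stage-specific peaks. In LP it was 3.03% of LP-specific against 6.59% of shared peaks in class 8, 6.45% against 7.87% in class 9 and 8.33% against 17.7% in class 10. In Phase 1 it was 0% against 7.43% in class 9 and 10.5% against 21.1% in class 10. LP-specific peaks were at promoters more often than Phase 1-specific ones by Fisher's exact test (odds ratio 1.30, 1.14 to 1.49, adjusted p = 0.00015), but not with a score of at least 30 (odds ratio 1.08, adjusted p = 0.547). Only 31 of the 596 LP-specific promoter peaks held a motif (5.20%), against 746 of 2774 shared promoter peaks (26.9%). Introns and intergenic sequence held most of the rest, with 42.0% and 36.6% of LP-specific and 47.5% and 35.2% of Phase 1-specific peaks.

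**Figure D4:**
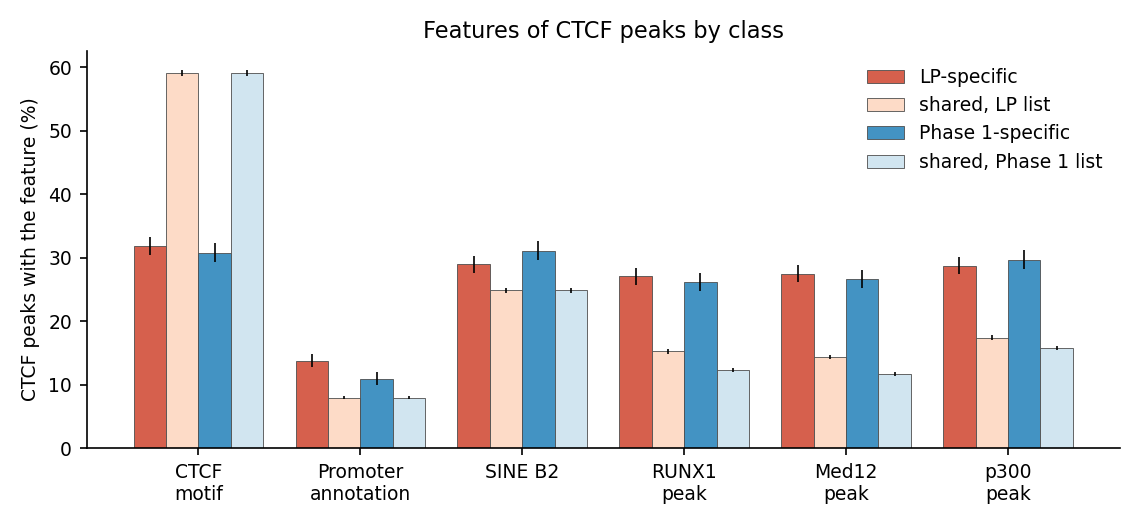
Percent of CTCF peaks (y axis) with a CTCF motif, promoter annotation, a SINE B2 element, or a RUNX1, Med12 or p300 peak of the same stage (x axis), in LP-specific, Phase 1-specific and shared peaks of either list. Bars carry 95% Wilson intervals, and the motif is present in 31.8% of LP-specific against 59.1% of shared peaks while the 3 other factors are more frequent at stage-specific peaks.

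SINE B2 elements followed the score of a peak. They held 48.9% of shared LP peaks in the lowest score class and 5.27% in the highest. Without matching they were therefore more frequent at LP-specific (1254 peaks, 28.9%) and Phase 1-specific peaks (1163, 31.1%) than at shared peaks (24.8% in either list). Matched on score over all classes the order was the opposite, with a Mantel-Haenszel odds ratio of 0.514 (0.475 to 0.557, adjusted p = 7.39e-63, n = 45388 peaks) in LP and 0.529 (0.488 to 0.575, adjusted p = 1.83e-52, n = 44793 peaks) in Phase 1. It did not hold in the upper LP classes. B2 elements held 29.3% of LP-specific against 22.9% of shared peaks in class 6, and 28.4% against 17.7% in class 7. In classes 8, 9 and 10 they held 24.2% against 12.7%, 19.4% against 8.41% and 8.33% against 5.27%. The upper Phase 1 classes went both ways, with 16.4% against 22.6% in class 6 and 15.8% against 4.98% in class 10. LP-specific peaks were in B2 elements slightly less often than Phase 1-specific ones by Fisher's exact test (odds ratio 0.902, 0.820 to 0.992, adjusted p = 0.042), which turned to 1.38 (adjusted p = 0.0104) with a score of at least 30.

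The B2 subfamilies, read without a test, had different shares in the stage-specific classes. Elements of B2_Mm2 held 476 Phase 1-specific peaks (12.7%, 11.7% to 13.8%) and 360 LP-specific peaks (8.31%, 7.52% to 9.17%), and B2_Mm1t held 200 (5.35%) and 147 (3.39%). The older B3 elements held 245 Phase 1-specific (6.55%) and 433 LP-specific peaks (9.99%), and B3A held 139 (3.72%) and 243 (5.61%). Among shared peaks 6.69% were in B2_Mm2 and 10.5% in B3. One 20-base match, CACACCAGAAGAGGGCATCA, was the commonest in both stage-specific classes, with 107 of 1379 LP-specific matches (7.76%) and 93 of 1151 Phase 1-specific matches (8.08%), against 1.00% of shared LP matches. It lay in a B2 element in 104 of the 107 and 84 of the 93. It is the match printed above at Cd28, the T cell co-stimulatory receptor, and at Tcf7, a transcription factor induced early by Notch. Neither these shares nor those of the subfamilies were matched on score. Of peaks with a motif in the lowest LP score class, 67.4% of LP-specific and 66.0% of shared ones lay in B2 elements. Over all classes it was 33.2% of the shared ones tested. The part of score was not tested. The authors kept reads with several alignments, and the part of read placement in such repeats was not tested.

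Over all score classes, RUNX1, Med12 and p300 were more frequent at stage-specific than at shared CTCF peaks of the same score. This order did not hold in every class of the LP list. A RUNX1 peak of the same stage overlapped 1172 LP-specific peaks (27.0%, 25.7% to 28.4%) against 15.2% of shared peaks, and 977 Phase 1-specific peaks (26.1%, 24.8% to 27.6%) against 12.3%. For Med12 the shares were 27.5% against 14.4% in LP and 26.6% against 11.7% in Phase 1, and for p300 28.7% against 17.4% and 29.7% against 15.8%. At matched score the 6 odds ratios were between 5.18 and 5.84, and the largest of their adjusted p-values was 3.46e-268. In the upper 5 LP classes pooled, without matching on score, the order was the reverse. RUNX1 was at 14.4% of 278 LP-specific against 20.4% of shared peaks, Med12 at 12.6% against 18.7% and p300 at 18.3% against 23.8%. By class, p300 was at 16.4% of LP-specific against 11.3% of shared peaks in class 6 and 18.9% against 11.2% in class 7. In classes 8, 9 and 10 it was at 6.06% against 14.1%, 19.4% against 26.4% and 41.7% against 55.4%. In the upper 5 Phase 1 classes, also pooled, p300 was at 44.3% of 122 Phase 1-specific against 21.1% of shared peaks. Between LP-specific and Phase 1-specific peaks none of these factors passed the threshold in Fisher's exact test, with odds ratios of 1.05 (0.949 to 1.16) for RUNX1, 1.04 (0.947 to 1.15) for Med12 and 0.953 (0.866 to 1.05) for p300 and adjusted p-values of 0.382, 0.393 and 0.374. Matched on score, RUNX1 and Med12 were slightly more frequent at LP-specific peaks (odds ratio 1.12 and adjusted p 0.0372 and 0.037). Notch1-IC, the released intracellular domain of Notch1, had short lists of 1585 peaks in LP and 152 in Phase 1. They overlapped 99 LP-specific (2.28%) and 15 Phase 1-specific peaks (0.401%), against 0.617% of all LP and 0.0714% of all Phase 1 CTCF peaks. LP cells had no Notch ligand in culture, and the reason for their longer list was not tested.

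Few stage-specific peaks had both a motif and another factor, and the largest set had neither. A RUNX1, Med12 or p300 peak of either stage overlapped 56 of 1379 LP-specific peaks with a motif (4.06%, 3.14% to 5.24%) and 1272 of 2953 without one (43.1%, 41.3% to 44.9%). In Phase 1 the counts were 106 of 1151 (9.21%, 7.67% to 11.02%) and 1116 of 2586 (43.2%, 41.3% to 45.1%). Neither was found at 1681 of 4332 LP-specific (38.8%) and 1470 of 3737 Phase 1-specific peaks (39.3%), against 29.4% of shared LP peaks. Among shared peaks the shares with another factor were closer, at 14.0% with and 28.1% without a motif in LP. Stage-specific and shared peaks were not matched on score here, and the part of score was not tested. Of LP-specific peaks with a motif 61.9% lay in B2 elements, and of those without one 19.1% were at promoters.

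**Figure D5:**
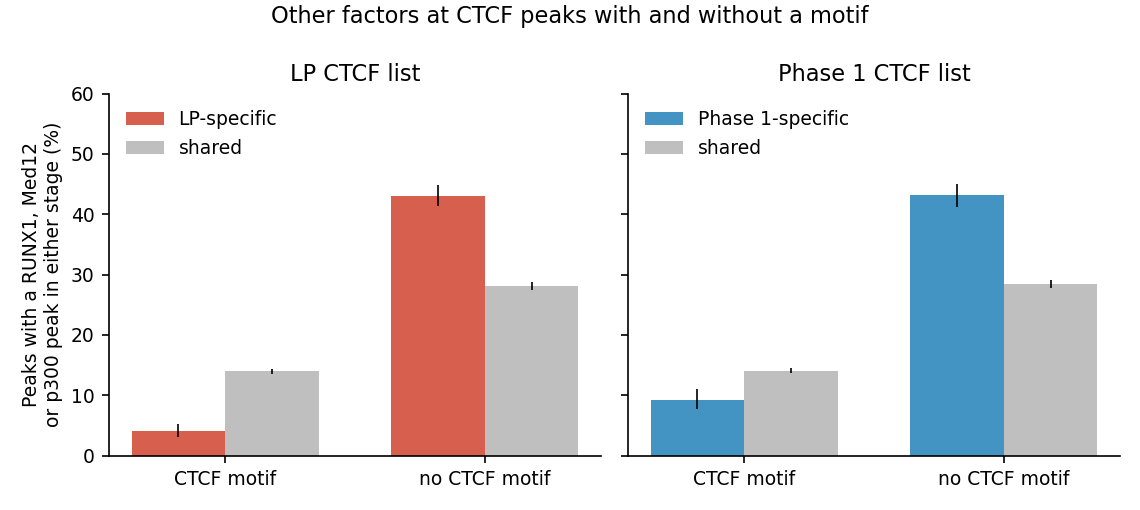
Percent of CTCF peaks overlapped by a RUNX1, Med12 or p300 peak of either stage (y axis), for peaks with and without a CTCF motif (x axis), in the LP list (left) and the Phase 1 list (right), with 95% Wilson intervals. Among LP-specific peaks the share is 4.06% with and 43.1% without a motif, and among shared LP peaks 14.0% and 28.1%, without matching on score.

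Where another factor was present in a single stage, it was mostly the stage of the CTCF peak, though shared peaks also leaned to LP. A p300 peak was listed in 1 stage only at 222 LP-specific CTCF peaks, and this was LP in 196 of them (88.3%, 83.4% to 91.9%). At Phase 1-specific CTCF peaks it was LP in 48 of 369 (13.0%, 9.95% to 16.8%), and at shared peaks, counted in the LP list, in 1868 of 2996 (62.3%, 60.6% to 64.1%). Med12 gave 179 of 204 (87.7%), 50 of 323 (15.5%) and 72.7%, and RUNX1 124 of 159 (78.0%), 38 of 265 (14.3%) and 75.4%. For RUNX1 at LP-specific peaks the interval, 70.9% to 83.7%, included the share at shared peaks. Leaving out peaks with a CTCF centre of the other stage within 1 kb, the p300 shares were 89.3% at LP-specific and 12.2% at Phase 1-specific peaks. All 3 factors were confined to the stage of the CTCF peak at 55 LP-specific and 120 Phase 1-specific peaks, and to the opposite stage at 1 and 2. The 55 are 1.27% of LP-specific peaks, beside 1.32% of shared LP peaks with all 3 in LP only, and the 120 are 3.21% of Phase 1-specific peaks, beside 0.399% of shared Phase 1 peaks with all 3 in Phase 1 only. Most stage-specific CTCF peaks with these factors, however, had them in both stages, as for p300 at 1048 LP-specific and 789 Phase 1-specific peaks.

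Nearest genes were read from 6 lists, chosen with earlier results of these data known. T-lineage genes had 13 LP-specific of 66 LP peaks (19.7%, 11.9% to 30.8%) and 12 Phase 1-specific of 65 Phase 1 peaks (18.5%, 10.9% to 29.6%). Stem and progenitor genes had 14 of 100 (14.0%, 8.53% to 22.1%) and 13 of 99 (13.1%, 7.84% to 21.2%), and Notch pathway genes 5 of 50 (10.0%) and 7 of 52 (13.5%). B-lineage genes had 4 of 38 in each stage (10.5%), myeloid genes 4 of 38 (10.5%) and 3 of 37 (8.11%), and genes for CTCF and cohesin 3 of 44 (6.82%) and 2 of 43 (4.65%). Except for the T-lineage list in both stages, the intervals included the shares over all peaks, 9.55% in LP and 8.35% in Phase 1. Peaks of 1 gene share a neighbourhood, and the lists were not independent of earlier results, so these shares are a description. None of these stage-specific peaks had a CTCF centre of the other stage within 1 kb. In LP a peak nearest to Bank1 and a peak nearest to Cebpa had one 1.05 kb away.

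The T-lineage peaks of Phase 1 were nearest to several regulators. The highest-scored was 22.6 kb upstream of Tcf7 (chr11:52305429-52305855), with a score of 49.4 (percentile 39.4), in a B2_Mm2 element with a motif. It overlapped RUNX1, Med12 and p300 peaks of Phase 1 and none of LP, and the nearest LP CTCF centre was 8.09 kb away. The next was 284 kb downstream of the start of Gata3, a T-lineage transcription factor, with a score of 43.7, no motif and the 3 other factors in both stages. Another peak, 2.94 kb upstream of Bcl11b, which is required for T-lineage commitment, scored 42.7 and lay in a CpG island without the other factors. Phase 1-specific peaks were also nearest to Zap70 (2), Lck and Cd247, all components of T cell receptor signalling. Those of Zap70 lay outside the gene and its 50 kb flanks. In LP the highest-scored were in introns of Ets1, with scores of 21.9 and 20.5 and the other 3 factors in both stages, and 42.5 kb from Cd28, with 20.7. Other LP-specific peaks were nearest to Bcl11b (2), Cd2, Fyb, Lef1, Cd3d, Rag1, Thy1 and Trat1, and to Ets1 with 1 more. That of Thy1 lay outside the gene and its 50 kb flanks.

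The Notch pathway list had 7 Phase 1-specific peaks among its 52 peaks (interval 6.68% to 25.3%, which includes the 8.35% of all peaks). Of these, 3 were nearest to Maml3 and 1 each to Dtx1, Nrarp, Notch2 and Hes1. The Hes1 peak lay outside the gene and its 50 kb flanks. The highest-scored was in intron 3 of Dtx1, a Notch-induced ubiquitin ligase gene, with a score of 62.7 (percentile 47.1). It was followed by intron 1 of Maml3, a coactivator of Notch1-IC, with 51.9, and by a peak 8.03 kb from Nrarp, a Notch target gene, with 32.7. At Dtx1 and Nrarp, the peak had no motif and overlapped RUNX1, Med12, p300 and Notch1-IC peaks of Phase 1, with none of RUNX1, Med12 or p300 in LP. In LP the leading peaks were 9.11 kb from Mfng, a glycosyltransferase that modifies Notch receptors (63.9), at the promoter of Notch2 (28) and in intron 1 of Maml3 (26.6).

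In the stem and progenitor list Lyl1 had the highest-scored LP-specific peak, with the score of 186.2 given above and the match printed above, and no other factor. It was followed by the promoter of Spi1, which encodes PU.1 (54), with the 3 other factors in both stages and no motif, and by intron 1 of Mef2c (24.3). Phase 1-specific peaks of the same list lay in introns of Runx2 (36.3) and Runx3 (35.8), both with the other factors in both stages, and near Erg (28.6). In the B-lineage list LP-specific peaks lay 78.9 kb from Foxo1 (33.8), at the first exon of Bank1 (25.5) and in the CpG island of Ebf1 (18.7), the gene inactivated in these cells. Phase 1-specific peaks lay in Bst1 (26.8) and at Blk (22.6 and 21.4), a B-lineage kinase. In the myeloid list LP-specific peaks lay 1.11 kb from Cebpa (90.6) and near Irf8 (24.7 and 17.9), and Phase 1-specific ones at Gfi1 (25.5), Csf2ra (21.6) and Itgam (19.9). Among genes of the CTCF and cohesin machinery, LP-specific peaks were nearest to Esco1 (55.4), Stag2 (19.3) and Zfp143 (15.4), and Phase 1-specific ones lay in B2 elements of Wapl (21.7) and Nipbl (19.4), which encode factors that release and load cohesin.

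Antigen receptor loci are given by their counts, without a test. The immunoglobulin heavy chain locus Igh (chr12:113254830-116010093, read with 50 kb to each side, as all loci) held 129 LP peaks, of which 15 were LP-specific (11.6%), and 116 Phase 1 peaks, of which 2 were Phase 1-specific (1.72%). Apart from the peak near Tmem121 at its 3′ side, with 254.8, the LP-specific peaks of Igh had scores of 15.3 to 35.3. The light chain locus Igk held 34 LP peaks with 7 LP-specific (20.6%) and 28 Phase 1 peaks with 1 Phase 1-specific (3.57%), the LP-specific ones with scores of 15.3 to 23.7. The T cell receptor loci had 6 LP-specific of 76 and 5 Phase 1-specific of 75 at Tra and Trd, 2 of 30 and 0 of 28 at Trb, and 0 of 9 and 2 of 11 at Trg. Igl had 5 peaks in each stage and none was stage-specific. By nearest gene, the most LP-specific peaks were assigned to 9430078K24Rik (6 of 13), Mir6388 (6 of 44), Mir7094-1 (6 of 23) and Zc3h12a (6 of 15). The share over all LP peaks was 9.55%, and genes with many peaks can lead such a count. All of the LP-specific peaks of Mir6388 and Mir7094-1 fell in Igh.

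The Hoxa cluster (chr6:52155590-52260880), genes for homeodomain factors of body patterning and blood progenitors, had more peaks in Phase 1. It held 8 LP peaks and 12 Phase 1 peaks, of which none was LP-specific and 4 were Phase 1-specific. These lay at the promoter of Hoxa5 (score 70.8, with a motif), 3.67 kb from Hoxaas3 (50.7), 0.578 kb from Mir196b (44.1) and in an exon of Hoxa10 (36.5), and the nearest LP centre was between 7.06 and 14.3 kb away. Hoxb had 1 Phase 1-specific peak of 15 and no LP-specific of 14, Hoxc 1 of 5 and none of 4, and Hoxd 1 LP-specific of 9 and no Phase 1-specific of 8. The clustered protocadherins, whose promoters CTCF is known to bind, held 47 LP peaks with 6 LP-specific and 44 Phase 1 peaks with 3 Phase 1-specific, all 9 of them at promoters of single isoforms with scores of 15.5 to 27.

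The remaining loci changed little. Over the 26 loci, 41 of 460 LP peaks (8.91%) and 25 of 444 Phase 1 peaks (5.63%) were stage-specific, and 9 loci had none in either stage within their 50 kb flanks. Among the latter were the imprinted loci of Dlk1 and Meg3 and of Peg3, and Notch3 (12 peaks in each stage), Hes1 (2), Thy1 (8), Zap70 (6), Il2ra (5) and Myc (4). H19 and Igf2 had 1 LP-specific peak of 10, at an Igf2 promoter with a score of 21.4, and Kcnq1 1 of 12 in each stage. At Lck 2 of 11 Phase 1 peaks were Phase 1-specific, at its promoter (29.1) and in a B2_Mm2 element (18.5). At Tcf7, Gata3 and Bcl11b 1 Phase 1-specific peak each was found, and Bcl11b and the Rag1 and Rag2 locus had 1 LP-specific peak each. By nearest gene, the most Phase 1-specific peaks were assigned to Rapgef2 (8 of 17), a regulator of Rap signalling, Gm10445 (7 of 10) and Foxp1 (6 of 21), a transcription factor that keeps lymphocytes quiescent, with scores of at most 57.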

How the data were processed

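ChIP-seq peak lists of CTCF, RUNX1, Med12, p300 and Notch1-IC in LP and Phase 1 cells were used, 10 of the 17 lists. Per the labels and the study's methods, the authors aligned reads to mm10 with Bowtie 1.1.1, called peaks with HOMER in factor mode against a control and kept those reproducible between 2 replicates by IDR with a normalised score of at least 15. The deposited Peak Score is a score per peak, with no read depth beside it, and the deposited Focus Ratio is a fraction. The labels and the methods differ on whether reads were single or paired. Reads with several alignments were kept up to a limit. No per-replicate values were used.

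With Python 3.11.15, numpy 2.4.6, pandas 2.3.3, scipy 1.17.1, pysam 0.24.0 and samtools 1.23.1, peaks were overlapped and shares given with 95% Wilson intervals. The family of 21 tests (two-sided Fisher's exact or Mantel-Haenszel over 10 score classes) was adjusted by Benjamini-Hochberg, with a threshold of 0.05. The motif matrix was learned from a core seed, searched on both strands, and built from 1985 peaks. Its threshold was 14.2 in log2 odds. Functions were tested on simulated data. Nearest genes came from the deposited promoter identifiers matched to RefSeq (GRCm38.p6), with 108 LP and 100 Phase 1 peaks unmatched. Loci came from GENCODE M21.

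Named peaks were the 5 highest-scored of each specific class, the 3 highest-scored shared ones of each list, the 3 largest percentile changes each way, up to 3 per gene list and stage, the 3 genes with most specific peaks (Zc3h12a was tied) and fixed loci. Other list members were named after their values were seen. The members and lists were chosen with earlier results of these data known. Some items the rule names are not reported here.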

Additional observations from a re-analysis of the deposited data

How the results depend on the processing

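Of 114 alternatives of the 21 tests, 103 kept direction and call. The motif comparison of LP-specific with Phase 1-specific peaks passed the threshold with a score of at least 30 (odds ratio 1.458) and with the stricter motif threshold (2.161). The promoter comparison lost its call with a score of at least 30 (1.076). The B2 comparison of both classes lost its call when peaks within 500 bp counted as shared (0.91) and turned with a score of at least 30 (1.378). Without matching on score, B2 against shared peaks turned to 1.232 in LP and 1.366 in Phase 1, since B2 elements lie at low-scored peaks. RUNX1 and Med12 passed the threshold for LP-specific against Phase 1-specific peaks when matched on score (1.117 for both) and when at least 50 percent of the shorter peak had to overlap the factor (1.132 and 1.157). The cause of the other changes was not tested.

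The LP-specific share of 9.55% was 9.187% when peaks within 500 bp counted as overlapping, 2.841% (980 peaks) with a score of at least 30, 6.659% (2297) with both lists cut at 30, 8.879% with equal numbers of peaks and 9.022% with 1 kb, which was chosen after seeing the data. The Phase 1-specific share of 8.35% was 8.086%, 2.69% (938), 7.671%, 8.879% and 8.05%, in the same order.

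No paired analysis was possible because each list combines both replicates, and for the same reason leaving out a replicate was not run. Read depth is not in the lists, and absence from a list does not show that a site was unbound.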

Other observations

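By chromosome, given without a test, the lowest stage-specific share outside chromosome Y was that of chromosome X in Phase 1. In LP it ran from 8.20% on chromosome 6 to 11.3% on chromosome 12, which carries Igh. In Phase 1 it was 5.02% on chromosome X (63 of 1255 peaks, interval 3.94% to 6.37%) and 6.14% on chromosome 18 (74 of 1206, 4.92% to 7.63%), and between 7.48% and 9.68% on the other autosomes. The LP share on chromosome X was 8.52% (7.12% to 10.2%). All 8 peaks on chromosome Y in either list were shared.

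The focus ratio, the fraction of reads in a peak that lie on the side expected for a point-like site, had a median of 0.828 at LP-specific and 0.829 at Phase 1-specific peaks, against 0.878 and 0.880 at shared peaks. It was lowest at stage-specific peaks with a CTCF centre of the other stage within 1 kb, with medians of 0.795 in LP and 0.715 in Phase 1. Fragments of ERVL-MaLR elements, a family of LTR retrotransposons, held 133 LP-specific peaks (3.07%) and 85 Phase 1-specific peaks (2.27%), against 1.61% and 1.62% of shared peaks.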
